A study of Homo sapiens with 4 samples.

Results

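The enzymes that make and recycle glutathione, reduce thioredoxin and remove peroxide and superoxide were followed in a pooled CRISPR-Cas9 knockout screen of the established human colon carcinoma line HCT116. The members were taken by gene symbol alone: the GPX, PRDX, SOD, TXNRD, MSRB and GLRX families, with MSRA, CAT, SRXN1, GCLC, GCLM, GSS, GSR, CTH, CBS, GGT1, GGT5, GGT6 and GGT7. They were 39 of the 1773 genes in the library, each targeted by 4 single guide RNAs (sgRNAs), or 156 of 7142 sgRNAs (2.18%). The cells carried a lentiviral library against human metabolic enzymes, taken up at a low multiplicity of infection and kept by puromycin, so that most cells held a single knockout. The pool was then kept for 7 days with PBS (1 library) or with oxaliplatin at 10 µM (3 libraries, replicates 1 to 3), a platinum compound used in colorectal cancer whose adducts link bases of DNA, and sgRNAs were counted in the DNA of surviving cells. Directions below follow the deposited labels of the 4 libraries, which no value used here checks independently. No library from before the treatment was analysed here, and the counts do not show how many cells of each knockout were lost or gained.

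Glutathione is built in successive steps: glutamate-cysteine ligase, with its catalytic subunit GCLC and its modifier subunit GCLM, joins glutamate to cysteine, and glutathione synthetase (GSS) adds glycine. Reduced glutathione feeds glutathione peroxidases and glutaredoxins, and thioredoxin feeds methionine sulfoxide reductases and most peroxiredoxins. NADPH is the final source of electrons in both systems. Superoxide dismutases turn superoxide into hydrogen peroxide, which catalase, peroxidases and peroxiredoxins remove. In colon carcinoma and many other tumours, glutathione is known to bind platinum drugs directly as well as to buffer oxidants.

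The library guides are known here only by number. The study's own sequence list gives the guide it used singly against GCLM, and it is shown in full in lower case as the example of what a counted sgRNA is.
sg GCLM: tgatctagacaaaacacagt
No source used here says whether this guide of 20 bases is among the 4 sgRNAs of GCLM that were counted.

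The libraries stood apart in ways that bear on every value below. Total counts were 8934799 in the PBS library and 27563013, 10494731 and 11146921 in oxaliplatin replicates 1, 2 and 3. The median count over all sgRNAs was 657, 495, 695 and 881 in the same order, lowest in replicate 1 despite its total. The largest count of an sgRNA was 20850, 511663, 22636 and 18495. Of the 156 sgRNAs of the module, 30 were at 0 in the PBS library (19.2%, 95% exact binomial interval 13.4 to 26.3), against 3 in oxaliplatin replicate 1 and 0 in replicates 2 and 3, where a count of 0 sgRNAs allows up to 2.34% by the same interval. The share at 0 among all sgRNAs was 19.0% in the PBS library. A count under 3 was found in the PBS library for 42 sgRNAs of the module (26.9%, and 27.0% of all sgRNAs), and 104 had at least 100 counts there (66.7%, and 68.0% of all). Oxaliplatin replicates 2 and 3 were close to each other over the 156 sgRNAs, with a median difference of 0.42 in log2(CPM + 1), where CPM is the count scaled to the library total, whereas replicate 1 differed from them by 1.94 and 2.23. The module held 2.23% of the counts in the PBS library and 2.07%, 2.32% and 2.38% in oxaliplatin replicates 1, 2 and 3.

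For the whole module, the median change with oxaliplatin lay close to that of all metabolic enzymes in the library. The value of a gene was the median over its sgRNAs of the log2 fold change, oxaliplatin over PBS, after scaling by median ratios, and the mean of that median over the 3 oxaliplatin libraries. The median gene value was 0.22 over the 39 members and 0.20 over all 1773 genes, and by library it was 0.03, 0.37 and 0.40 for the members against 0.15, 0.24 and 0.23 for all genes. Members ran from -1.56 for CBS to 7.65 for GCLM, with 14 above 0 and 9 below 0 in all 3 libraries and 20 above the median of all genes. Among all 1773 genes, 716 were above 0 and 554 below 0 in all 3 libraries. Scaling by total counts or by TMM moved the median of all genes to -0.00 and 0.79 and that of the members to 0.01 and 0.83, so signs near 0 depend on the scaling.

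Gene values were higher where more sgRNAs of a gene were scarce in the PBS library, which all 3 comparisons share. Members without any sgRNA under 3 counts there had a median value of -0.31 (11 genes), members with 1 such sgRNA -0.10 (15 genes), and members with 2 or more 2.39 (13 genes), and the same 3 medians over all genes were -0.78, -0.11 and 3.41. The sgRNAs of a gene did not move together. In 36 of 39 members (92.3%, and 86.1% of all genes) the sgRNA of lowest mean fold change was below 0 and the highest above 0, and the median distance between them was 8.98 on the log2 scale (8.74 over all genes).

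**Figure D1:**
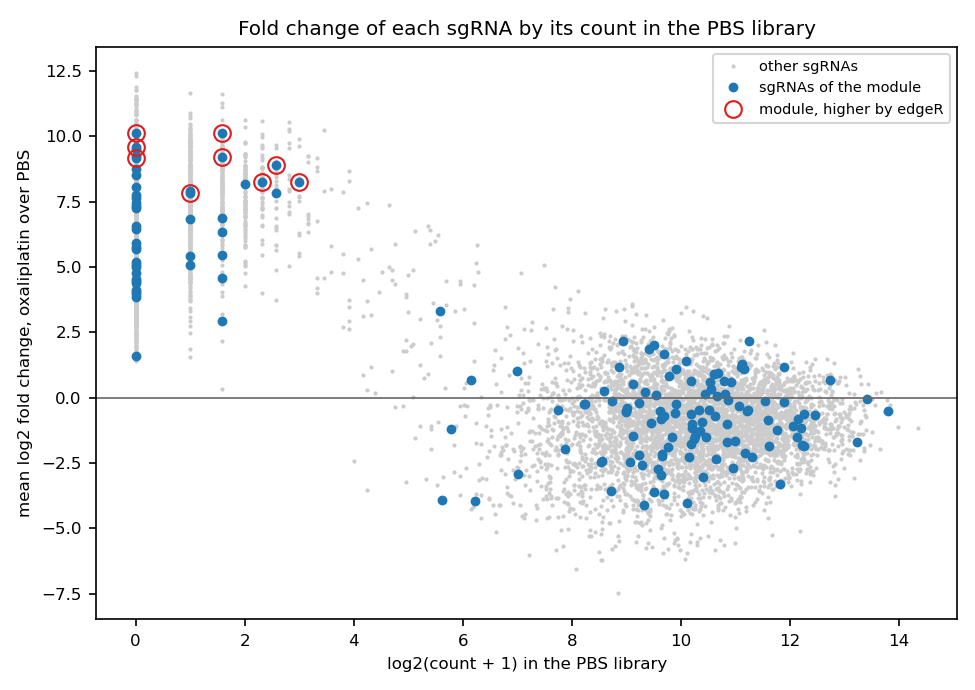
Mean log2 fold change over the 3 oxaliplatin libraries (y axis) against log2(count + 1) in the PBS library (x axis), 1 point per sgRNA, with the sgRNAs of the module in blue, all others in grey and the 9 members higher by edgeR circled in red. The 9 circled sgRNAs had at most 7 counts in the PBS library, and the sgRNAs with at least 100 counts there lie on both sides of 0.

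The quasi-likelihood test of edgeR, run on all 7106 sgRNAs that passed its filter, called 9 of the 155 members tested higher with oxaliplatin (5.81%) and 0 lower, where it called 8.37% of all sgRNAs higher and 0% lower. At an unadjusted p under 0.05 the members counted 37 higher and 2 lower, where 25.8% of all sgRNAs were higher and 1.45% lower. DESeq2 called 39 of the 155 members higher and 0 lower, where it called 28.5% of all sgRNAs higher and 0.408% lower. The 9 sgRNAs lay on 9 genes, 1 each on CTH, GCLM, GGT1, GPX3, PRDX2, PRDX4, PRDX5, SOD3 and MSRB2, from 6 of the 7 subgroups described below. All 9 had 7 or fewer counts in the PBS library, and 6 had fewer than 3. Their adjusted p by edgeR was between 0.0416 and 0.0444. All 9 calls were lost with total-count scaling, which left 0 calls among all sgRNAs. Over the whole library, the 595 sgRNAs called higher had at most 44 counts with PBS, and 474 had fewer than 3. The test takes the spread of the lone PBS library to equal that between the drug-treated ones.

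**Figure D2:**
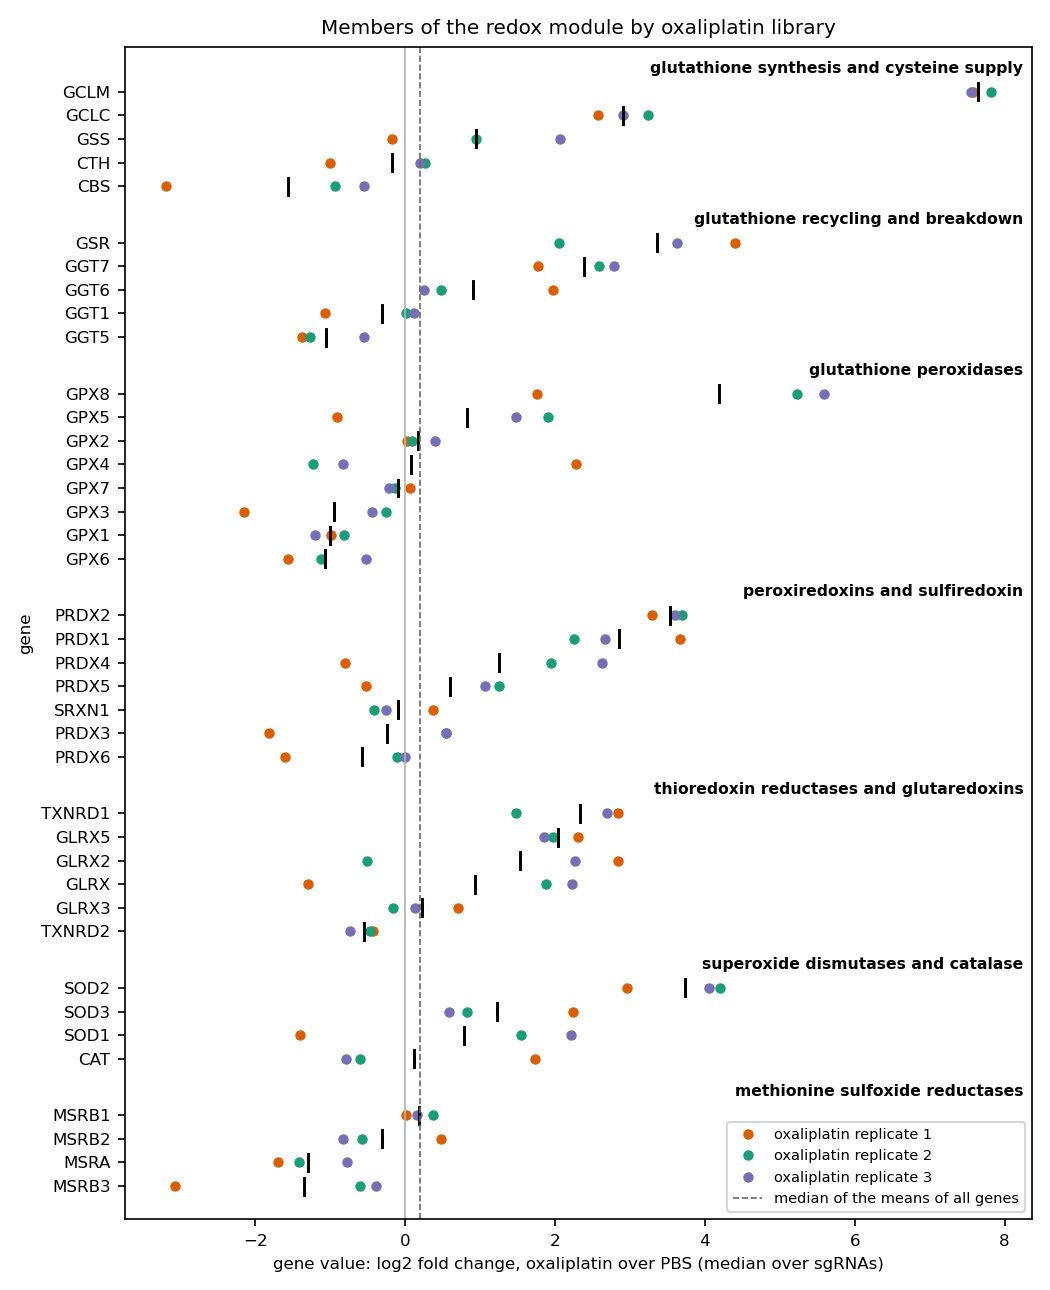
Gene values in each oxaliplatin library (x axis, log2 fold change over PBS, median over the sgRNAs of a gene) for the 39 members (y axis), ordered within 7 subgroups, with dots for the 3 libraries, a black bar for their mean and a dashed line at the median of all genes, 0.20. GCLM lies apart at 7.58, 7.82 and 7.55, and replicate 1 lies on the other side of 0 from both other libraries for genes such as GPX4, SOD1 and CAT.

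Of the 5 genes of glutathione synthesis and cysteine supply, GCLM was the highest member and CBS the lowest of the whole module, the latter through replicate 1. Without that library CBS stood at -0.74, above MSRA at -1.10 and GPX4 at -1.03. The subgroup median was 0.95, or 0.75 above that of all genes. Taken in replicates 1, 2 and 3 singly, the subgroup median minus that of all genes was -0.32, 0.71 and 1.84, so the libraries disagreed on its sign. It was 1.28 without replicate 1, 0.19 without replicate 3 and -0.26 with a pseudocount of 10. The gene value of GCLM was 7.65 ± 0.15 (SD, n = 3), the 20th from the highest of 1773, and rested on sgRNAs that were scarce in the PBS library. Its size was set in part by the pseudocount, since it was 6.15 when scarce counts were raised to the floor of 3 and 4.72 with a pseudocount of 10, and the SD does not cover this. Each SD of a gene value is the spread among the 3 oxaliplatin libraries, all set against the same PBS library. Such an SD holds no error of the PBS counts, however small it is. Wherever 4 counts of an sgRNA follow each other, they are unscaled and stand in the order PBS, replicate 1, replicate 2, replicate 3. Counts in the PBS library and in oxaliplatin replicates 1, 2 and 3 were 0, 2844, 335 and 387 for sgRNA 1405 of GCLM. They were 4, 1260, 2260 and 3209 for sgRNA 1406, and 0, 283, 186 and 126 for sgRNA 1408. Each of these sgRNAs was higher in all 3 oxaliplatin libraries than in the PBS library. Its remaining sgRNA 1407 had 829, 714, 829 and 634 counts, which after median-ratio scaling was 0.521-, 0.801- and 0.540-fold. By edgeR, with TMM scaling, the log2 fold change of sgRNA 1407 was -0.07 (SE 0.98). Of the 4, only sgRNA 1406 passed the test of edgeR (log2 fold change 9.11, SE 1.59, adjusted p = 0.0416).

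GCLC, the catalytic subunit, had a value of 2.90 ± 0.33 (SD, n = 3). Its sgRNA 1402 had 681 counts in the PBS library and 15267, 2149 and 1300 in the oxaliplatin libraries, above PBS in all 3 after scaling (13.6-, 2.53- and 1.35-fold). The other well-counted sgRNA of GCLC, number 1403, had 699, 1810, 188 and 398 counts and was above PBS only in replicate 1. From 2 counts in the PBS library, sgRNA 1404 had 70, 879 and 575 counts, ratios of 21.2 (95% counting interval 5.64 to 178), 352 (97.2 to 2912) and 203 (55.9 to 1680). With 0 counts in the PBS library, sgRNA 1401 had 2, 38 and 48, at least 10.1- and 11.3-fold higher in replicates 2 and 3 against a floor of 3 counts per library.

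GSS, the enzyme of the closing step, went 2 ways within a single gene. Its well-counted sgRNAs were lower with oxaliplatin in every library. Counts of sgRNA 1505 were 3605 with PBS and 135, 1035 and 1012 with oxaliplatin (0.0226-, 0.230- and 0.198-fold after scaling). Counts of sgRNA 1508 were 1989 with PBS and 763, 184 and 608 with oxaliplatin (0.232-, 0.0741- and 0.216-fold). Neither passed the test on single sgRNAs (adjusted p by edgeR 0.256 and 0.374). The other 2 sgRNAs of GSS were at 0 in the PBS library and had 3, 17 and 96, and 37, 81 and 111 counts with oxaliplatin, so that the gene value, at 0.95 ± 1.12 (SD, n = 3), was above 0 although the summed counts of GSS were the lowest of the module against PBS (log2 fold change -2.36, SE 0.67). The sign of that gene value was set by the pseudocount: it was -0.08 with counts under 3 set to the floor and -0.26 with a pseudocount of 10.

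Cystathionine beta-synthase (CBS) and cystathionine gamma-lyase (CTH) supply cysteine from homocysteine. CBS was at -1.56 ± 1.42, although its summed counts gave a log2 fold change of 0.79 by edgeR, and CTH at -0.18 ± 0.72 (SD, n = 3 each), and their sgRNAs disagreed. In CBS, sgRNA 537 had 829 counts with PBS and 1438, 5870 and 6310 with oxaliplatin, while sgRNA 540 had 1362 with PBS and 46, 377 and 722 with oxaliplatin. The remaining pair had 74, 2, 1 and 46 counts (sgRNA 538) and 302, 229, 463 and 449 (sgRNA 539). The called sgRNA of CTH, number 735, had 1 count with PBS and 329, 850 and 726 with oxaliplatin, ratios of 199 (95% counting interval 35.4 to 7879), 681 (122 to 26931) and 513 (91.7 to 20276). The other sgRNAs of CTH had 9573, 4092, 3491 and 5046 counts (number 733), 2207, 2315, 13745 and 10987 (number 734) and 865, 559, 241 and 272 (number 736), of which numbers 733 and 736 were below PBS in all 3 libraries after scaling and number 734 was above it in replicates 2 and 3 only.

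**Figure D3:**
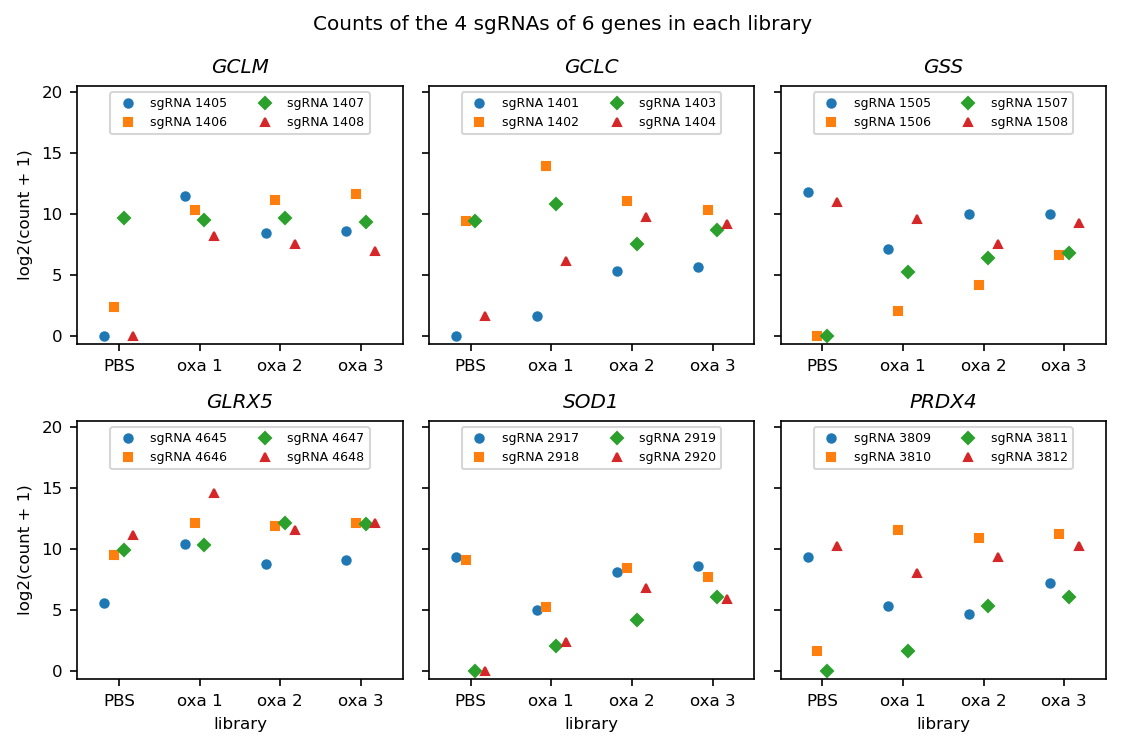
Unscaled counts of the 4 sgRNAs of GCLM, GCLC, GSS, GLRX5, SOD1 and PRDX4 as log2(count + 1) (y axis) in the PBS library and the 3 oxaliplatin libraries (x axis), each symbol an sgRNA. In GSS, SOD1 and PRDX4 sgRNAs from 533 to 3605 counts with PBS lie lower with oxaliplatin after scaling while those at 0 to 2 counts lie higher in replicates 2 and 3, and 3 of the 4 sgRNAs of GLRX5 lie close together in replicates 2 and 3.

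Among the genes of glutathione recycling and breakdown, glutathione reductase (GSR), which regenerates reduced glutathione from its disulfide, was the highest at 3.36 ± 1.19 (SD, n = 3), and GGT5, of the gamma-glutamyltransferases that break glutathione down outside the cell, the lowest at -1.06 ± 0.45. The subgroup median lay 0.70 above that of all genes, by library 1.63, 0.24 and 0.03, and 0.13 above without replicate 1. The well-counted sgRNAs of GSR pointed apart: number 1504 had 491 counts with PBS and 15065, 797 and 2610 with oxaliplatin, and number 1501 had 918 and then 731, 287 and 447. Its scarce sgRNAs had 2, 109, 47 and 162 counts (number 1502) and 0, 47, 688 and 482 counts (number 1503). The called sgRNA of GGT1, number 1372, had 5 counts with PBS and 3458, 4680 and 3951 with oxaliplatin, or 418-, 750- and 558-fold after scaling. The gene value of GGT1 was -0.31 ± 0.66, since the other 3 sgRNAs had 510, 112, 814 and 1443 counts (number 1369), 3139, 546, 1293 and 2644 (number 1370) and 3799, 10718, 3799 and 2777 (number 1371). For GGT5, sgRNAs 1381 (4484, 3343, 1274 and 2716 counts) and 1384 (801, 437, 182 and 175) were below PBS in all 3 libraries after scaling, sgRNA 1382 had 1344, 378, 1279 and 2100, and sgRNA 1383 had 0, 115, 59 and 201. Within GGT6, sgRNA 6272 had 2432 counts with PBS and 48443, 10628 and 7655 with oxaliplatin (12-, 3.5- and 2.22-fold), among the 3 largest increases shared by all libraries among the well-counted sgRNAs of the module. GGT6 and GGT7 were at 0.90 ± 0.93 and 2.39 ± 0.53.

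The 8 glutathione peroxidases lay on both sides of 0, from GPX6 at -1.07 ± 0.53 to GPX8 at 4.20 ± 2.11 (SD, n = 3), with 3 below 0 and 2 above 0 in all 3 libraries. Their median was -0.01, or -0.22 relative to that of all genes. The medians taken within replicates 1, 2 and 3 lay farther down, at -0.59, -0.44 and -0.55 relative to all genes. GPX4 reduces peroxidised phospholipids in membranes, and many cultured lines need it to avoid ferroptosis. Its value was 0.07 ± 1.92, and the libraries split: 2.28 in replicate 1 and -1.23 and -0.82 in replicates 2 and 3. A single sgRNA of GPX4, number 1492, went from 468 counts with PBS to 17520 in replicate 1, and had 418 and 452 counts in replicates 2 and 3 (22.6-, 0.716- and 0.682-fold). The others had 600, 190, 85 and 397 counts (number 1489), 4736, 8166, 1497 and 2294 (number 1490) and 0, 2945, 114 and 395 (number 1491). In replicates 2 and 3 all 3 sgRNAs of GPX4 with at least 100 PBS counts were thus below PBS.

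GPX8, a peroxidase of the endoplasmic reticulum, had 3 sgRNAs at 0 in the PBS library. Those had 3, 691 and 387 counts (number 6993), 0, 46 and 80 counts (number 6995) and 13, 36 and 39 counts (number 6996) with oxaliplatin. Its well-counted sgRNA 6994 had 516 counts with PBS and 170, 1093 and 914 with oxaliplatin. With counts under 3 set to the floor of 3, the value of GPX8 was 2.14 in place of 4.20. GPX1, the main cytosolic peroxidase, was at -1.00 ± 0.20 and had no sgRNA under 3 counts. GPX2, the form of the gut epithelium, was at 0.17 ± 0.20, and GPX7 at -0.10 ± 0.14. GPX6, which is expressed mainly in other tissues, had sgRNAs with 374, 39, 126 and 193 counts (number 6737), 1868, 3139, 1796 and 2868 (number 6738), 1224, 1422, 231 and 780 (number 6739) and 649, 173, 2325 and 3168 (number 6740). GPX5, likewise restricted to other tissues, was at 0.82 ± 1.52. The plasma peroxidase GPX3 was at -0.94 ± 1.04, and its called sgRNA 1488 had 0 counts with PBS and 2896, 736 and 1042 with oxaliplatin, at least 584-, 197- and 245-fold higher against the floor. The other sgRNAs of GPX3 had 1164, 258, 2529 and 1844 counts (number 1485), 2036, 651, 814 and 1410 (number 1486) and 559, 243, 282 and 344 (number 1487), the last 2 below PBS in all 3 libraries.

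Most peroxiredoxins reduce peroxides with electrons from thioredoxin, and sulfiredoxin (SRXN1) repairs the overoxidised form of some of them. The median of this subgroup lay 0.40 above that of all genes, with replicate 1 below (-0.66) and replicates 2 and 3 above (1.01 and 0.84). It was 0.03 without replicate 2 and 0.16 without replicate 3. PRDX2 was highest at 3.53 ± 0.21 (SD, n = 3) and PRDX6 lowest at -0.57 ± 0.89. The pattern of PRDX2 divided cleanly by PBS count. Its sgRNAs 3013 and 3016 had 5 and 7 counts with PBS and reached 431, 3551 and 4311, and 2400, 3999 and 4115, with oxaliplatin, and only number 3016 passed the test of edgeR (log2 fold change 9.01, SE 1.59, adjusted p = 0.0416). Its sgRNAs 3014 (727, 7, 186 and 412 counts) and 3015 (5641, 19720, 2895 and 2294) were below PBS after scaling, except number 3015 in replicate 1. In mean fold change over the 3 libraries, the sgRNAs of PRDX6 differed least of all members, with a range of 0.57 on the log2 scale. They had 297, 231, 346 and 552 counts (number 3609), 798, 234, 1119 and 1006 (number 3610), 1574, 602, 1813 and 2486 (number 3611) and 2375, 6027, 1197 and 1829 (number 3612). Within single libraries they lay farther apart. In replicate 1 they ran from -2.49 (number 3610) to 0.62 (number 3612), and in replicate 2 from -1.31 (number 3612) to 0.17 (number 3610).

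PRDX1, a cytosolic peroxiredoxin that many lines need, was at 2.86 ± 0.73. Its sgRNAs had 1792, 16485, 1160 and 1140 counts (number 2329), 1175, 318, 1022 and 1300 (number 2330), 0, 35, 35 and 60 (number 2331) and 0, 108, 329 and 362 (number 2332). In replicates 2 and 3 the 2 well-counted sgRNAs of PRDX1 were below PBS and the 2 absent from the PBS library were above it. PRDX4, the peroxiredoxin of the endoplasmic reticulum, was at 1.26 ± 1.82. Its called sgRNA 3810 went from 2 counts to 3012, 1916 and 2331, ratios of 910 (95% counting interval 252 to 7521), 768 (212 to 6343) and 823 (228 to 6800). The opposite held for sgRNA 3809, with 643 counts under PBS and 39, 24 and 145 with oxaliplatin (0.0367-, 0.0299- and 0.159-fold, log2 fold change -3.25, SE 1.30, adjusted p by edgeR 0.168), and for sgRNA 3812, with 1207 and then 251, 626 and 1186. Its sgRNA 3811 had 0, 2, 39 and 64 counts. PRDX5 was at 0.60 ± 0.97 with a called sgRNA, number 4254, at 0 counts with PBS and 536, 1307 and 1038 with oxaliplatin, at least 108-, 349- and 244-fold higher. Among its well-counted sgRNAs, number 4255 had 1098, 5846, 3182 and 3920 counts and was 3.22-, 2.32- and 2.52-fold above PBS, number 4256 had 828, 17, 123 and 330 and was below it in all 3 libraries, and number 4253 had 598, 149, 1824 and 1480. PRDX3, of mitochondria, and SRXN1 were at -0.24 ± 1.37 and -0.10 ± 0.41.

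The 6 thioredoxin reductases and glutaredoxins had the highest subgroup median over the 3 libraries, 1.23, which is 1.03 above that of all genes, and by library 1.36, 0.42 and 1.82. The rank rested on single libraries. Without replicate 3 the distance from all genes was 0.52, under glutathione recycling (1.02) and the dismutases (0.85), and without replicate 1 it was 1.16, under glutathione synthesis (1.28). The median was 0.17 above all genes over sgRNAs with at least 100 PBS counts, where 5 of the 6 genes had a value, and 0.05 below with counts summed per gene. TXNRD1, the cytosolic thioredoxin reductase, was highest at 2.34 ± 0.74 (SD, n = 3) through sgRNAs that were absent from the PBS library (number 3063 with 0, 24, 28 and 84 counts and number 3064 with 0, 27, 16 and 113). Its other sgRNAs had 427, 1806, 271 and 350 counts (number 3061) and 1411, 2284, 426 and 356 (number 3062), below PBS in replicates 2 and 3. The mitochondrial TXNRD2 was lowest at -0.54 ± 0.17, and below 0 in all 3 libraries. Its sgRNAs had 950, 2601, 522 and 534 counts (number 3833), 1282, 707, 1906 and 1654 (number 3834), 0, 508, 129 and 485 (number 3835) and 767, 48, 269 and 346 (number 3836).

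GLRX5, a mitochondrial glutaredoxin of iron-sulfur cluster assembly, had no sgRNA under 3 counts in the PBS library, and its sgRNAs lay mostly above PBS. The gene value was 2.04 ± 0.23, and 1.81 ± 0.15 over its 3 sgRNAs with at least 100 PBS counts. Counts with PBS and in replicates 1, 2 and 3 were 726, 4433, 3690 and 4354 for sgRNA 4646, which at 3.69-, 4.07- and 4.23-fold had the largest increase shared by all 3 libraries among the 104 well-counted sgRNAs of the module. They were 964, 1302, 4552 and 4249 for sgRNA 4647 and 2299, 25081, 3047 and 4529 for sgRNA 4648. From 47 counts with PBS, sgRNA 4645 had 1332, 430 and 553. Of these 12 values, 11 were above PBS after scaling, the exception being sgRNA 4647 in replicate 1 (0.816-fold). No sgRNA of GLRX5 passed the test (adjusted p by edgeR from 0.147 to 0.577). GLRX3, a cytosolic glutaredoxin of iron-sulfur trafficking, was at 0.22 ± 0.44. Its sgRNAs had 2138, 2567, 2380 and 2332 counts (number 3805), 1473, 2179, 1259 and 1242 (number 3806), 70, 346, 78 and 154 (number 3808) and 0, 4859, 351 and 389 (number 3807). The first pair was below PBS in all 3 libraries by less than 2-fold. GLRX and GLRX2 were at 0.94 ± 1.95 and 1.53 ± 1.79, and GLRX2 was the only member with no sgRNA of at least 100 PBS counts.

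Of the superoxide dismutases and catalase, SOD2, the manganese enzyme of mitochondria, was highest at 3.74 ± 0.67 (SD, n = 3) and catalase (CAT), of peroxisomes, lowest at 0.11 ± 1.41. The subgroup median lay 0.80 above that of all genes, and the medians within each library lay 1.85, 0.95 and 1.18 above. In SOD2, sgRNA 2923 went from 1 count to 112, 1222 and 1848 and sgRNA 2924 from 2 counts to 172, 862 and 688, with ratios of 67.7 (95% counting interval 11.9 to 2698) and 52.0 (14.2 to 433) in replicate 1. Its well-counted sgRNAs pointed apart, with 1171, 3104, 2059 and 2669 counts for number 2921 (1.60-, 1.41- and 1.61-fold) and 1594, 63, 976 and 1394 for number 2922. SOD1, the cytosolic copper-zinc enzyme, was at 0.79 ± 1.93. Both of its well-counted sgRNAs were lower with oxaliplatin in all 3 libraries, number 2917 with 627 counts under PBS and 30, 279 and 393 after the drug, and number 2918 with 533 and then 36, 351 and 201. The other 2 sgRNAs of SOD1 were at 0 with PBS and had 3, 17 and 63 (number 2919) and 4, 110 and 57 counts (number 2920). None of the 4 passed the test (adjusted p by edgeR from 0.195 to 0.606).

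SOD3, the secreted dismutase, was at 1.22 ± 0.90. Its called sgRNA 2927 went from 2 counts to 7466, 2658 and 4656, ratios of 2257 (95% counting interval 624 to 18637), 1065 (294 to 8797) and 1644 (455 to 13578). Its sgRNA 2925 had 3787 counts with PBS, 67760 in replicate 1, the highest count of the module in any library, and 5330 and 4918 in replicates 2 and 3. The other sgRNAs of SOD3 had 2228, 7664, 7802 and 7769 counts (number 2926, 2.08-, 2.81- and 2.46-fold) and 1129, 32, 864 and 1290 (number 2928). In CAT, replicate 1 stood against both other libraries: the gene value was 1.74 there and -0.60 and -0.79 in replicates 2 and 3. The sgRNAs of CAT had 958, 5549, 487 and 566 counts (number 525), 1, 8, 258 and 277 (number 526), 1480, 10045, 1960 and 1671 (number 527) and 794, 179, 64 and 263 (number 528).

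Methionine sulfoxide reductases, which repair oxidised methionine in proteins, had the lowest subgroup median, at -1.01 relative to that of all genes and -0.99, -0.83 and -0.81 by library, and 0 of the 4 lay above the median of all genes. The distance was smaller over sgRNAs with at least 100 PBS counts (-0.26) and with counts summed per gene (-0.12). MSRA, the form that acts on the S-sulfoxide, was at -1.29 ± 0.47 and had 4 well-counted sgRNAs, all below PBS in all 3 libraries. Their counts were 1835, 1450, 1066 and 1460 (number 2049), 4932, 4464, 4954 and 4221 (number 2050), 2533, 840, 436 and 1173 (number 2051) and 129, 1, 48 and 131 (number 2052). By TMM scaling MSRA no longer had all 4 below PBS in all 3 libraries. MSRB3 was lowest at -1.35 ± 1.49 and held a pair of the 3 largest decreases shared by all libraries among the well-counted sgRNAs. These were sgRNA 6700 with 1112 counts under PBS and 32, 134 and 197 with oxaliplatin (0.0174-, 0.0966- and 0.125-fold, log2 fold change -3.22, SE 1.16, adjusted p by edgeR 0.132) and sgRNA 6697 with 419 and then 13, 72 and 118 (0.0188-, 0.138- and 0.199-fold, adjusted p by edgeR 0.300). Against them, sgRNA 6699 of MSRB3 had 1551, 1775, 6027 and 6415 counts and was above PBS in replicates 2 and 3, and sgRNA 6698 had 0, 64, 246 and 355.

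MSRB1, a selenoprotein, was highest of these reductases at 0.18 ± 0.18 (SD, n = 3), with sgRNAs of 1177, 311, 1720 and 1088 counts (number 4753), 879, 2967, 1570 and 2372 (number 4754), 3496, 2872, 2158 and 1468 (number 4755) and 1, 26, 189 and 262 (number 4756). Its sgRNA 4754 was above PBS and its sgRNA 4755 below PBS in all 3 libraries. The called sgRNA of mitochondrial MSRB2, number 4062, had 0 counts with PBS and 246, 1022 and 1205 with oxaliplatin, at least 49.6-, 273- and 284-fold higher. MSRB2 as a gene was at -0.31 ± 0.69, as the other 3 sgRNAs had 234, 180, 40 and 82 counts (number 4061), 1926, 13222, 2480 and 2210 (number 4063) and 806, 83, 439 and 446 (number 4064).

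**Figure D4:**
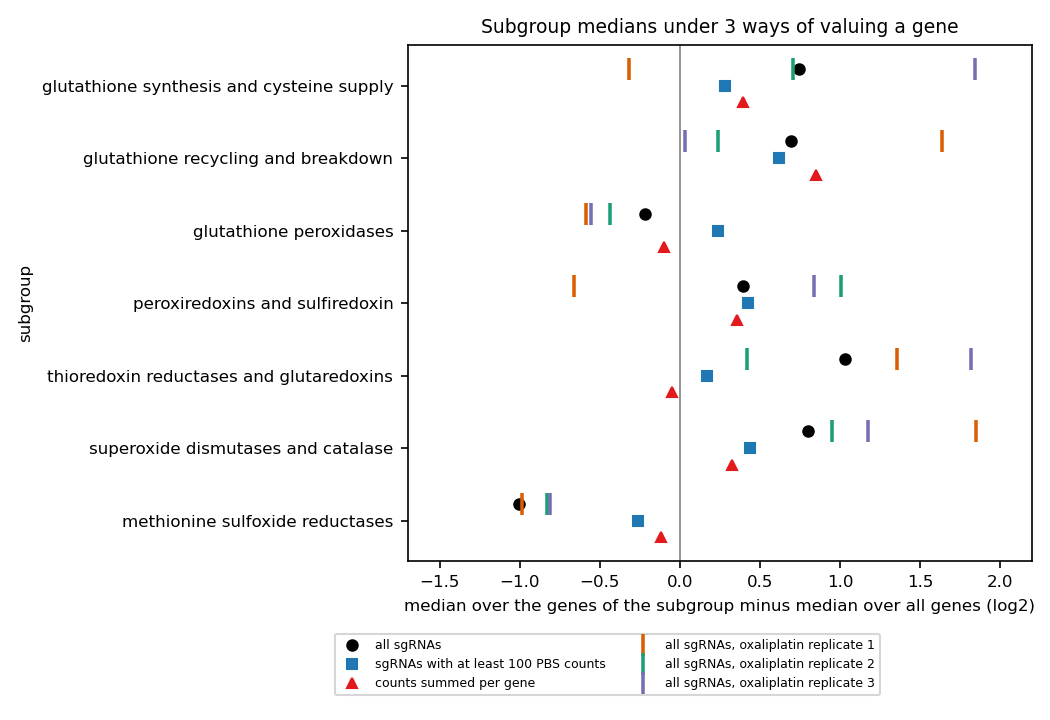
Median gene value of each subgroup minus the median of all genes (x axis, log2) for 7 subgroups (y axis), from all sgRNAs (black, with coloured ticks for the 3 oxaliplatin libraries taken singly), from sgRNAs with at least 100 PBS counts (blue) and from counts summed per gene (red). The methionine sulfoxide reductases lie at -1.01, -0.26 and -0.12 and the thioredoxin reductases and glutaredoxins at 1.03, 0.17 and -0.05 under these settings.

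The subgroup medians, from 1.01 below to 1.03 above all genes, drew together where sgRNAs were well counted: there they ran from 0.26 below to 0.62 above. Shares of sgRNAs under 3 counts in the PBS library differed between subgroups, from 18.8% for the methionine sulfoxide reductases to 37.5% for the superoxide dismutases and catalase, and stood at 35% for glutathione synthesis and cysteine supply and 33.3% for the thioredoxin reductases and glutaredoxins, with 27.1% over all genes. The part of these shares in the subgroup order was not tested. Grouped by place in the cell, the 6 mitochondrial members had a median of 0.64 and the 3 of the endoplasmic reticulum 1.26. The 8 secreted or surface members had a median of 0.26 and the remaining 22 had 0.20. Those 22 were of the cytosol or several places, with CAT, of peroxisomes, counted among them. The 3 members of the endoplasmic reticulum had 6 of 12 sgRNAs under 3 counts in the PBS library. Over sgRNAs of at least 100 PBS counts the 4 medians were -0.87, -0.52, -0.72 and -0.64, against -1.00 for all genes.

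Members that many cultured lines need (GPX4, TXNRD1, PRDX1, SOD1, GLRX3 and GLRX5) had a median value of 1.42, and members expressed mainly in other tissues (GPX3, GPX5, GPX6, SOD3, GGT5 and GGT6) -0.06. The sgRNAs under 3 counts in the PBS library were 8 of 24 (33.3%) for the former and 4 of 24 (16.7%) for the latter. Over sgRNAs with at least 100 PBS counts the medians were -0.67 and -0.72. No difference between these lists was tested, and members of a list share no more than the label that put them there.

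With well-counted sgRNAs alone, the module followed the whole library. Of its 104 sgRNAs with at least 100 PBS counts, 47 (45.2%) were below PBS in all 3 oxaliplatin libraries and 11 (10.6%) above, where 52.4% of all well-counted sgRNAs were below and 11.7% above. Among the 36 members with 2 or more such sgRNAs, 6 had all of them below PBS in all 3 libraries (GLRX, GLRX3, GSS, MSRA, PRDX4 and SOD1) and 0 had all of them above, and over all genes of that kind the shares were 18% and 0.385%. With TMM scaling, 3 of the 6 were left (GSS, PRDX4 and SOD1), and GLRX5 had all of its well-counted sgRNAs above PBS. Over the 104 sgRNAs the median log2 fold change was -0.66, against -0.96 over all well-counted sgRNAs.

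Counts summed over the sgRNAs of a gene weight each sgRNA by its abundance in a library. On that scale GCLM and GSS stood at opposite ends of the module. Sums for GCLM were 833 in the PBS library and 5101, 3610 and 4356 in the oxaliplatin libraries, all above PBS. That rise came from sgRNAs scarce with PBS, numbers 1405, 1406 and 1408, with 0, 4 and 0 counts there. The well-counted sgRNA 1407 of GCLM was below PBS after median-ratio scaling (0.521-, 0.801- and 0.540-fold). By that scaling 52.4% of all well-counted sgRNAs were below PBS in all 3 libraries. With TMM scaling edgeR gave sgRNA 1407 a log2 fold change of -0.07 (SE 0.98, adjusted p = 0.971). Sums for GSS were 5594 with PBS and 938, 1317 and 1827 with oxaliplatin, lower in all 3. By edgeR the log2 fold change of GCLM was 2.00 (SE 0.59, unadjusted p = 0.0205, adjusted p = 0.694) and that of GSS was -2.36 (SE 0.67, unadjusted p = 0.0185, adjusted p = 0.694). Over 1823 genes and single-sgRNA entries it called 0 higher and 0 lower (0% each), members included, with 85 higher and 33 lower at an unadjusted p under 0.05, of which GCLM and GSS were the 2 members. DESeq2 called 123 higher and 37 lower (6.75% and 2.03%), again with GCLM (log2 fold change 1.97, adjusted p = 1.94e-06) and GSS (-2.39, adjusted p = 0.0082) as the members. Next to GCLM came SOD3 at 1.93 (SE 1.38), GCLC at 1.90 (SE 1.24) and GLRX5 at 1.79 (SE 0.81), and next to GSS came SOD1 at -1.40 (SE 1.41) and GGT5 at -1.08 (SE 0.55).

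**Figure D5:**
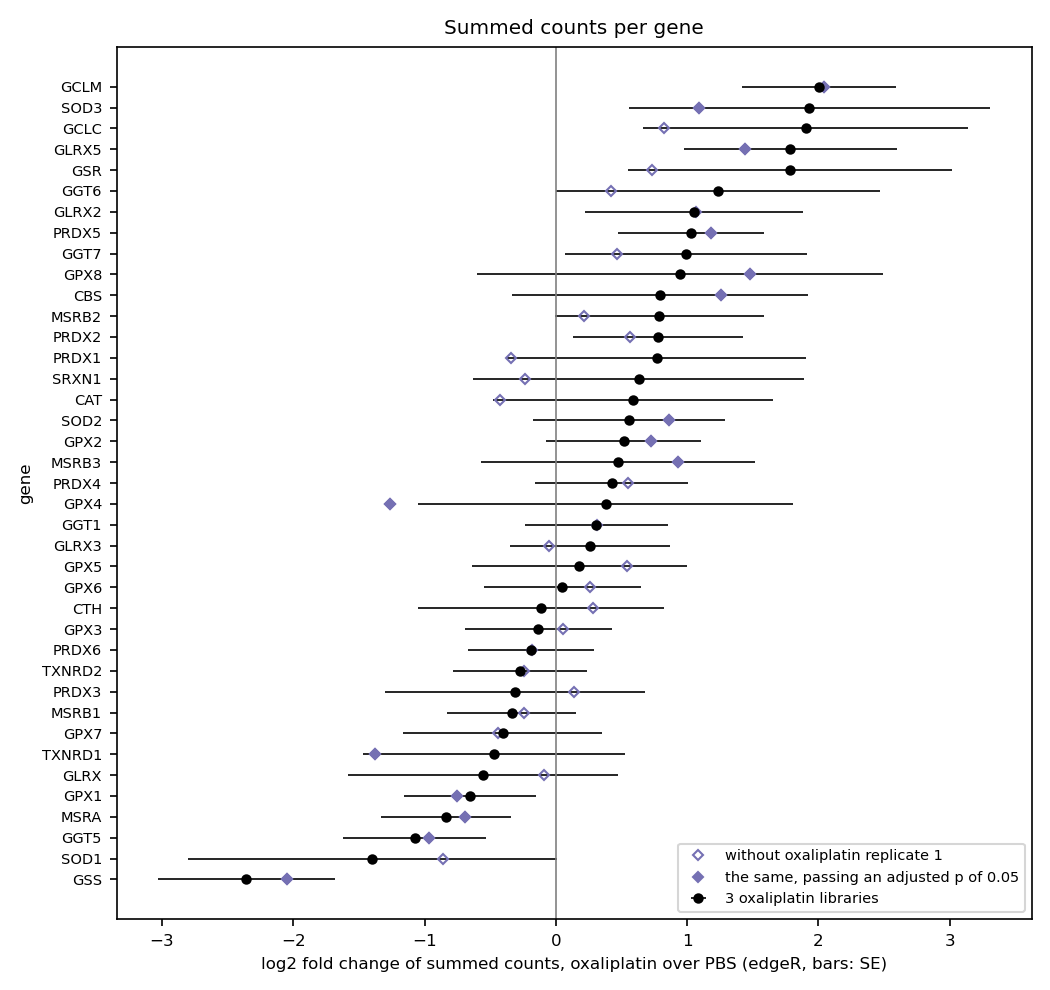
Log2 fold change of counts summed per gene, oxaliplatin over PBS (x axis), for the 39 members (y axis), with black points and bars for the estimate of edgeR and the SE derived from its test over 3 oxaliplatin libraries and purple diamonds for the estimate without replicate 1, filled where the adjusted p is under 0.05. GCLM at 2.00 and GSS at -2.36 are the extremes, and GPX4 moves from 0.38 to -1.27 without replicate 1.

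Among the alternatives, the number of members called rose most without oxaliplatin replicate 1. Without it edgeR called 65 of 155 sgRNAs of the module higher (41.9%) and 25 lower (16.1%), where it called 38.2% and 15.5% of all sgRNAs, and on summed counts 9 of 39 members higher (23.1%) and 6 lower (15.4%), where it called 22.9% and 18.2% of all entries. Both shares of the module were near those of the library. The 9 higher genes were GCLM (log2 fold change 2.04), GPX8 (1.48), GLRX5 (1.44), CBS (1.26), PRDX5 (1.18), SOD3 (1.09), MSRB3 (0.93), SOD2 (0.87) and GPX2 (0.72). The 6 lower genes were GSS (-2.05), TXNRD1 (-1.37), GPX4 (-1.27), GGT5 (-0.96), GPX1 (-0.76) and MSRA (-0.69). GCLM had an adjusted p of 2.56e-06 and GSS of 4.84e-08 in that edgeR fit, in which the spread comes from 2 alike libraries. Without replicate 2 edgeR called 13 sgRNAs of the module higher and 0 lower, where it called 8.54% of all sgRNAs higher and 0% lower, and without replicate 3 it called 7 higher and 0 lower, where it called 4.23% and 0.0143% of all. On summed counts it called 0 members with either of these libraries left out, where it called 0.439% of all entries higher without replicate 2 and 0% without replicate 3. Between replicate 1 and the mean of replicates 2 and 3 the gene values of the members differed by a median of 1.21 on the log2 scale, from -3.64 for GPX8 to 3.31 for GPX4, and 23 of 39 differed by more than 1. Between replicates 2 and 3 the median difference was 0.27, and 4 of 39 differed by more than 1.

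Genes beside the module in the same redox network gave a like picture. Of 29 such genes (NADPH supply, selenium handling, oxidant sources and other cysteine and dipeptide steps), edgeR called 8 of the 115 sgRNAs tested higher and 0 lower, and 0 genes on summed counts (0 at an unadjusted p under 0.05 in either direction). Over the whole library it called 8.37% of sgRNAs higher and 0% lower. The 8 sgRNAs, on CNDP2, CYBA, DPEP2, GGTLC1 (a pair), ME3, NNT and NOX3, had 9 or fewer counts with PBS. The median gene value was 0.06 for the 8 genes of NADPH supply, from IDH1 at -2.90 ± 1.03 to NNT at 6.28 ± 1.41 (SD, n = 3). NNT, the mitochondrial transhydrogenase, had 2 sgRNAs under 3 counts in the PBS library. The 9 oxidant sources had a median of 1.49, against 0.20 for all genes. They ran from the dual oxidase DUOX1 at -2.01 to the NADPH oxidase NOX1 at 6.22, which had 3 sgRNAs under 3 counts. Over sgRNAs with at least 100 PBS counts the median of the oxidant sources was -0.73, against -1.00 for all genes. The 3 genes of selenium handling (SEPHS1, SEPHS2 and SCLY) were listed because selenoproteins occur among GPX, TXNRD and MSRB1. Their median was 0.34, and that of the 9 other cysteine and dipeptide genes 0.09.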

How the data were processed

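sgRNAs were counted in 1 PBS library and 3 oxaliplatin libraries. From genomic DNA the authors made sgRNA amplicons by 2-step PCR and deposited whole-number counts per sgRNA, as 1 table and per library with equal values. The submitters' processing notes list MAGeCK (version not given in the sources used here) and the genome build mm10 with no stated role, so no coordinates are printed. No source says that the oxaliplatin libraries were separate cultures beyond the division into groups, so p-values reflect the spread among these samples alone, possibly technical. The PCR reads carry no molecular identifiers, so they are not independent molecules and the intervals and floors cover counting error only.

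Counts were used as deposited, with Python 3.11.15, numpy 2.4.6, scipy 1.17.1, pandas 2.3.3, matplotlib 3.10.9, R 4.3.3, edgeR 4.0.16 (TMM, quasi-likelihood test, Benjamini-Hochberg over all features) and DESeq2 1.42.0. Each oxaliplatin library was scaled with PBS by MAGeCK's median ratio, a pseudocount of 1 was added for log2 fold changes, and sgRNAs absent from both were dropped. All 39 symbols matched the RefSeq table. Folds against an sgRNA at 0 used a floor of 3 counts per library, and counting intervals (95%) are exact binomial. Each SE given with edgeR was derived as the absolute log2 fold change divided by the square root of the F statistic of its test. Steps were tested on simulated data. Alternatives changed the scaling, filter, tool, pseudocount, PBS minimum (100), summary and libraries. The members, gene lists, rules and alternatives were chosen with earlier results of these data known. Counts of single sgRNAs are given for GCLM, GCLC, 6 members needed by many lines, the extremes of each subgroup, members with a called sgRNA and the 3 largest shared changes each way. Counts given for GSS and the 3 scalings of well-counted sgRNAs were added after seeing the data.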

Additional observations from a re-analysis of the deposited data

How the results depend on the processing

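The members called on single sgRNAs by edgeR, 9 higher and 0 lower, were 0 higher with total-count scaling and 0 among sgRNAs with at least 100 PBS counts, 39 higher with DESeq2, and between 7 and 65 higher and between 0 and 25 lower when 1 oxaliplatin replicate was left out. The counts moved with those over all sgRNAs. Those were 595 higher by edgeR, 0 with total-count scaling, 0 with at least 100 PBS counts and 2026 with DESeq2. With a replicate left out they were between 297 and 2712 higher and between 0 and 1101 lower. Among the 9 called sgRNAs, 6 lost the call without replicate 3, 1 without replicate 2 and 0 without replicate 1. On summed counts, 0 members either way became 1 higher and 1 lower with DESeq2, and from 0 to 9 higher and 0 to 6 lower with 1 replicate left out. The module median, 0.22, was 0.013 with total counts, 0.83 with TMM and -0.70 with at least 100 PBS counts, against -0.00, 0.79 and -1.00 for all genes. Relative to all genes, glutathione peroxidases, at -0.22, stood at -0.093 with a pseudocount of 10, 0.24 with at least 100 PBS counts, -0.10 with summed counts and between -0.50 and -0.17 with 1 replicate left out. Thioredoxin reductases and glutaredoxins, at 1.03, stood at 0.17 with at least 100 PBS counts and -0.052 with summed counts. They ranged from 0.52 to 1.16 with 1 replicate left out. Glutathione synthesis and cysteine supply, at 0.75, stood at -0.26 with a pseudocount of 10 and between 0.19 and 1.28 with 1 replicate left out, glutathione recycling and breakdown, at 0.70, between 0.13 and 1.02, and peroxiredoxins, at 0.40, at -0.03 with a pseudocount of 10 and between 0.03 and 0.92. Superoxide dismutases and catalase stood at 0.33 with summed counts. Methionine sulfoxide reductases, at -1.01, stood at -0.82 with a pseudocount of 10, -0.26 with at least 100 PBS counts, -0.12 with summed counts and between -1.00 and -0.83 with 1 replicate left out. With at least 100 PBS counts and median-ratio scaling, GCLM stood at -0.72, PRDX1 at -0.52, PRDX2 at -2.13 and SOD2 at -0.87, below PBS in all 3 libraries. All genes stood at -1.00 on that measure. With summed counts MSRB1 stood at -0.49. Well-counted members above PBS in all 3 libraries numbered 22 in place of 11 with TMM. The cause of these changes was not tested. No paired analysis was possible because the series holds 1 PBS library. Depth limits the sgRNAs under 3 counts in that library, where folds against 0 counts are bounds and ratios to 1 or 2 counts have wide counting intervals.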
